A study of Caenorhabditis briggsae with 9 samples.

Results

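The transcripts described here are Cbr-glp-1 (CBG06809), a Notch receptor gene, and Cbr-apx-1 (CBG21821) and Cbr-dsl-3 (CBG13573), which encode ligands of the DSL family, in third-stage (L3) larvae of the nematode Caenorhabditis briggsae. These 3 genes, of 22922 gene rows in the count table, were chosen by their rise in gu163 over AF16 in an earlier look at the same counts. RNA was sequenced from whole animals of 3 strains with 3 libraries each. The strains were gu163, which carries allele gu163 of Cbr-spr-4 (also named Cbr-ivp-1), gu167, which carries allele gu167 of Cbr-htz-1 (also named Cbr-ivp-2), and the wild-type isolate AF16. All were kept on standard NGM plates at 20 degrees, bleached and synchronized, staged under Nomarski optics and harvested just before the vulval precursor cells began to divide. Replicates are independent biological preparations, per the labels, and whether either allele removes or alters its gene's product is not stated there.

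Notch receptors sit in the cell membrane and bind DSL ligands, mostly carried by neighbouring cells. Binding lets proteases cut the receptor, first an ADAM metalloprotease and then gamma-secretase with its presenilin subunit, and the freed intracellular part enters the nucleus and acts with the DNA-binding protein LAG-1. In C. elegans, GLP-1 keeps germ cells in mitosis at the distal end of the gonad and acts in early embryos, while LIN-12 sorts fates among vulval precursor and somatic gonad cells. APX-1 is a ligand for GLP-1 in the C. elegans embryo and one of several DSL ligands made by the primary vulval precursor, together with LAG-2 and DSL-1.

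Libraries held 8294524 to 14095189 counts, and 12507 genes passed the filter on low counts. Levels are given as CPM, read counts scaled to a common library total after TMM normalization, and 3 counts correspond to 0.189 to 0.391 CPM in these libraries. AF16 replicate 3 and gu167 replicate 3 stood apart from the other libraries of their strains on the second principal component (66.3 and -45.8) and had the lowest and highest TMM scaling factors (0.746 and 1.20), so a call of a named gene that changed without them is given beside its values or with the other processing alternatives. In gu163, replicate 1 also stood apart, at 67.8 on the first principal component against 48.2 and 45.6 for replicates 2 and 3. On the second it lay at 21.5 against -19.5 and -7.79, and its TMM factor was 0.881 against 1.11 and 1.07. Fits without it are among those that left out a library. Cbr-spr-4 ranged from 207 to 251 CPM in gu163, from 144 to 156 CPM in gu167 and from 88.0 to 120.0 CPM in AF16. Cbr-htz-1, the histone H2A.Z gene, ranged from 49.7 to 63.8 CPM in gu163, from 57.5 to 62.8 CPM in gu167 and from 59.9 to 78.7 CPM in AF16. Without the type of the alleles, these levels do not check the strain labels.

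Cbr-glp-1 was measured at 25.3, 17.9 and 20.7 CPM in gu163, 13.4, 15.7 and 14.5 CPM in gu167, and 7.15, 8.08 and 7.43 CPM in AF16. The strains did not overlap: every gu163 library lay above every gu167 library, and every gu167 library above every AF16 library. The means were 21.3 ± 3.72 CPM in gu163, 14.5 ± 1.16 CPM in gu167 and 7.55 ± 0.477 CPM in AF16 (SD, n = 3 each). These levels rested on 194 to 257 counts per library in gu163, 144 to 249 in gu167 and 59 to 93 in AF16.

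Cbr-apx-1 was measured at 3.0, 3.56 and 2.74 CPM in gu163, 0.918, 1.07 and 2.11 CPM in gu167, and 0.504, 0.782 and 0.755 CPM in AF16. It had the same order of strains with no overlap, although gu167 replicate 3 lay well above the other gu167 libraries. The means were 3.10 ± 0.421 CPM in gu163, 1.37 ± 0.649 CPM in gu167 and 0.680 ± 0.154 CPM in AF16 (SD, n = 3 each). Counts were low, with 23, 43 and 34 in gu163, 11, 17 and 21 in gu167, and 5, 9 and 6 in AF16.

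Cbr-dsl-3 was measured at 4.17, 3.65 and 4.27 CPM in gu163, 1.09, 2.46 and 2.01 CPM in gu167, and 1.71, 1.91 and 1.64 CPM in AF16. Only gu163 stood apart: its libraries lay above all others, while gu167 spanned the AF16 range, with gu167 replicate 1 the lowest of the 9 libraries. The means were 4.03 ± 0.335 CPM in gu163, 1.85 ± 0.699 CPM in gu167 and 1.75 ± 0.142 CPM in AF16 (SD, n = 3 each). The counts behind them were 32, 44 and 53 in gu163, 13, 39 and 20 in gu167, and 17, 22 and 13 in AF16.

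**Figure D1:**
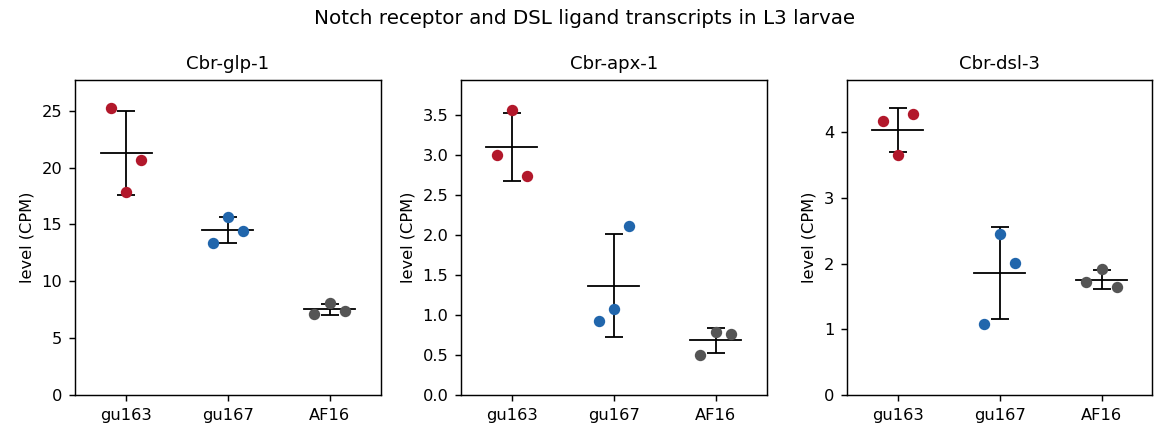
Level in CPM (vertical axis, starting at 0, a separate scale for each gene) of Cbr-glp-1, Cbr-apx-1 and Cbr-dsl-3 in gu163, gu167 and AF16. Points are libraries, and bars are the mean and SD of 3 libraries. Cbr-glp-1 and Cbr-apx-1 are highest in gu163, intermediate in gu167 and lowest in AF16, while Cbr-dsl-3 in gu167 overlaps AF16.

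In gu163 against AF16, the contrast that chose the genes, the log2 fold change was 1.49 ± 0.18 for Cbr-glp-1 (2.81-fold), 2.17 ± 0.40 for Cbr-apx-1 (4.50-fold) and 1.19 ± 0.32 for Cbr-dsl-3 (2.28-fold), each ± SE. All 3 genes had no overlap between these strains, against 14.5% of the 12507 genes tested that were higher without overlap. At an adjusted p under 0.05, 6.36% of the genes tested were called higher in gu163 and 2.94% lower, and the median log2 fold change was -0.01. Nothing is read from the members' calls here, since this contrast picked them. The other receptor gene, Cbr-lin-12, which is not a member, lay just outside the threshold (edgeR adjusted p = 0.0514). As a limit on the description, Cbr-dsl-3 lay inside it in 0 of 6 fits that left out a library of either strain.

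In gu167, Cbr-glp-1 was 1.92-fold higher than in AF16 (log2 fold change 0.94 ± 0.18, 95% interval 0.54 to 1.34, n = 3 per strain, edgeR quasi-likelihood adjusted p = 0.0234). Cbr-apx-1 had a log2 fold change of 0.96 ± 0.42 (interval 0.03 to 1.90) and did not pass (edgeR adjusted p = 0.314). Cbr-dsl-3 had 0.08 ± 0.33 (interval -0.65 to 0.81, edgeR adjusted p = 0.926). So 1 of the 3 genes was called higher, against 1.97% of all genes tested called higher and 0.128% called lower, and 2 of the 3 had no overlap, against 11.9% of all genes that were higher without overlap. These values share the AF16 libraries with the contrast that chose the genes, and a low level in those libraries raises both. The Cbr-glp-1 call no longer held after leaving out AF16 replicate 1 (adjusted p = 0.0844) or AF16 replicate 2 (0.0519), and likewise gu167 replicate 2 (0.116), gu167 replicate 3 (0.0888) or gu163 replicate 3 (0.0595), with only these 2 strains in the fit (0.0561), and when AF16 replicate 3 was dropped along with gu167 replicate 3 (0.0897), where the log2 fold change was 0.93. The Cbr-apx-1 difference was 0.55 without gu167 replicate 3, and the Cbr-dsl-3 difference turned to -0.20 without gu167 replicate 2.

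Between the mutants, Cbr-dsl-3 was lower in gu167 than in gu163 (log2 fold change -1.10 ± 0.31, interval -1.79 to -0.42, n = 3 per strain, edgeR adjusted p = 0.0415). Cbr-apx-1 had a log2 fold change of -1.21 ± 0.36 (interval -2.0 to -0.41) and missed the threshold (edgeR adjusted p = 0.0509). Cbr-glp-1 had -0.55 ± 0.17 (interval -0.93 to -0.17, edgeR adjusted p = 0.0619). Of all genes tested, 8.33% were called lower and 5.13% higher in gu167, and 20.2% were lower without overlap, as all 3 genes were. These values share the gu163 libraries with the contrast that chose the genes. The Cbr-dsl-3 call was lost in 6 of 6 fits that left out a library of either strain (adjusted p = 0.0537 to 0.124). Cbr-apx-1 passed by DESeq2 (0.0312) and limma-voom (0.0307), and without AF16 replicate 3 (0.0427), gu167 replicate 3 (0.0364) or both (0.0234). Cbr-glp-1 passed by DESeq2 (0.0343) and without AF16 replicate 3 (0.0387).

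The order gu163 above gu167 above AF16, with no overlap between any 2 strains, was shared by Cbr-glp-1 and Cbr-apx-1 with 1.25% of the genes tested (156 of 12507). Its gu163 and AF16 ends were fixed by the choice of the genes. Across the 9 libraries, with each gene's log2 CPM taken as deviations from its own mean, Cbr-glp-1 and Cbr-apx-1 differed by a root mean square of 0.43. The difference was 0.44 between Cbr-glp-1 and Cbr-dsl-3 and 0.51 between Cbr-apx-1 and Cbr-dsl-3. The genes' own SDs over the 9 libraries were 0.66, 0.91 and 0.63 on the same scale.

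The genes with a symbol whose pattern over the 9 libraries differed least from that of Cbr-glp-1, of 4815 compared, were Cbr-sago-2, an Argonaute gene (root mean square difference 0.18), Cbr-lin-5, a spindle positioning gene (0.18), and Cbr-gna-2, a glucosamine phosphate N-acetyltransferase gene (0.19). Cbr-sago-2 was measured at 90.4, 85.1 and 89.4 CPM in gu163, 73.8, 74.4 and 73.1 CPM in gu167, and 34.5, 32.4 and 31.6 CPM in AF16. Cbr-sago-2 had the Cbr-glp-1 order of strains with no overlap. The genes named here were picked for their likeness, which favours a shared order, so nothing is read from it. Nearest to Cbr-apx-1 were Cbr-ccpp-6 (0.30), Cbr-gei-14 (0.30) and Cbr-fut-6 (0.37). Nearest to Cbr-dsl-3 were Cbr-gem-4 (0.25), Cbr-cid-1 (0.28) and Cbr-toe-2 (0.28). Cbr-cid-1 was measured at 101, 108 and 105 CPM in gu163, 48.9, 48.8 and 46.2 CPM in gu167, and 43.8, 53.5 and 46.2 CPM in AF16, with gu167 overlapping AF16 as it did for Cbr-dsl-3.

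Cbr-lin-12 (CBG06826), the other Notch receptor gene, was measured at 5.73, 6.63 and 5.80 CPM in gu163, 2.003, 3.59 and 3.22 CPM in gu167, and 3.93, 2.09 and 1.64 CPM in AF16. As for Cbr-dsl-3, gu163 lay above all other libraries and gu167 overlapped AF16. Its log2 fold change was 1.24 ± 0.35 in gu163 against AF16, 0.20 ± 0.35 in gu167 against AF16 (edgeR adjusted p = 0.813) and -1.04 ± 0.34 in gu167 against gu163 (0.0683). DESeq2 and limma-voom called Cbr-lin-12 higher in gu163 than in AF16 (0.0103 and 0.0371) and lower in gu167 than in gu163 (0.0246 and 0.0454). In edgeR without AF16 replicate 1, Cbr-lin-12 passed in both comparisons (0.0193 and 0.0354), and between the mutants also without AF16 replicate 3 (0.037). In the CB4 reference annotation 16 genes lie between Cbr-glp-1 and Cbr-lin-12.

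Of the other DSL ligand genes, Cbr-lag-2, the ligand of the distal tip cell in C. elegans, had 3, 6 and 1 counts in gu163, 7, 7 and 5 in gu167, and 4, 3 and 2 in AF16. Cbr-dsl-7 had 0, 3 and 2 counts in gu163, 0, 1 and 1 in gu167, and 0 in each AF16 library. Cbr-dsl-1 had 1 count in 1 gu163 library and 0 in the other libraries. These 3 genes did not pass the filter on low counts, and when edgeR was run with no filter their adjusted p was 0.271 or higher in each comparison. The Cbr-lag-2 counts in gu167 lay above those in AF16 without overlap (log2 fold change 0.69 with no filter, adjusted p = 0.706). No symbol matched arg-1, dsl-2, dsl-4, dsl-5 or dsl-6.

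Of 65 C. elegans gene names of the Notch pathway and of germ cell fate, 54 were matched in the count table and 50 were tested, the 3 members included. Among the other 47, 5 genes were called higher and 0 lower in gu163 against AF16 (edgeR; 9 higher and 3 lower at an unadjusted p under 0.05), with a median log2 fold change of 0.12, against -0.01 over all genes tested, of which 6.36% were called higher and 2.94% lower. DESeq2 called 7 higher and 1 lower, where it called 1023 higher and 594 lower over all 12507 genes. In gu167 against AF16, 4 were called higher and 0 lower (9 and 6 at an unadjusted p under 0.05), with a median of -0.04, against -0.02 over all genes, of which 1.97% were called higher and 0.128% lower. DESeq2 called 5 higher and 3 lower, where it called 411 higher and 225 lower over all 12507 genes. Without AF16 replicate 2, edgeR called 4 higher and 3 lower, where it called 177 higher and 85 lower over all 12812 genes. In gu167 against gu163, 1 was called higher and 4 lower, with a median of -0.02, against 0.02 over all genes, of which 5.13% were called higher and 8.33% lower. That count of 5 fell to 1 without gu163 replicate 1, gu163 replicate 3, gu167 replicate 2 or gu167 replicate 3, and to 3 without gu167 replicate 1. The share of all genes at an unadjusted p under 0.05 was not computed, so nothing is read from the unadjusted counts.

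**Figure D2:**
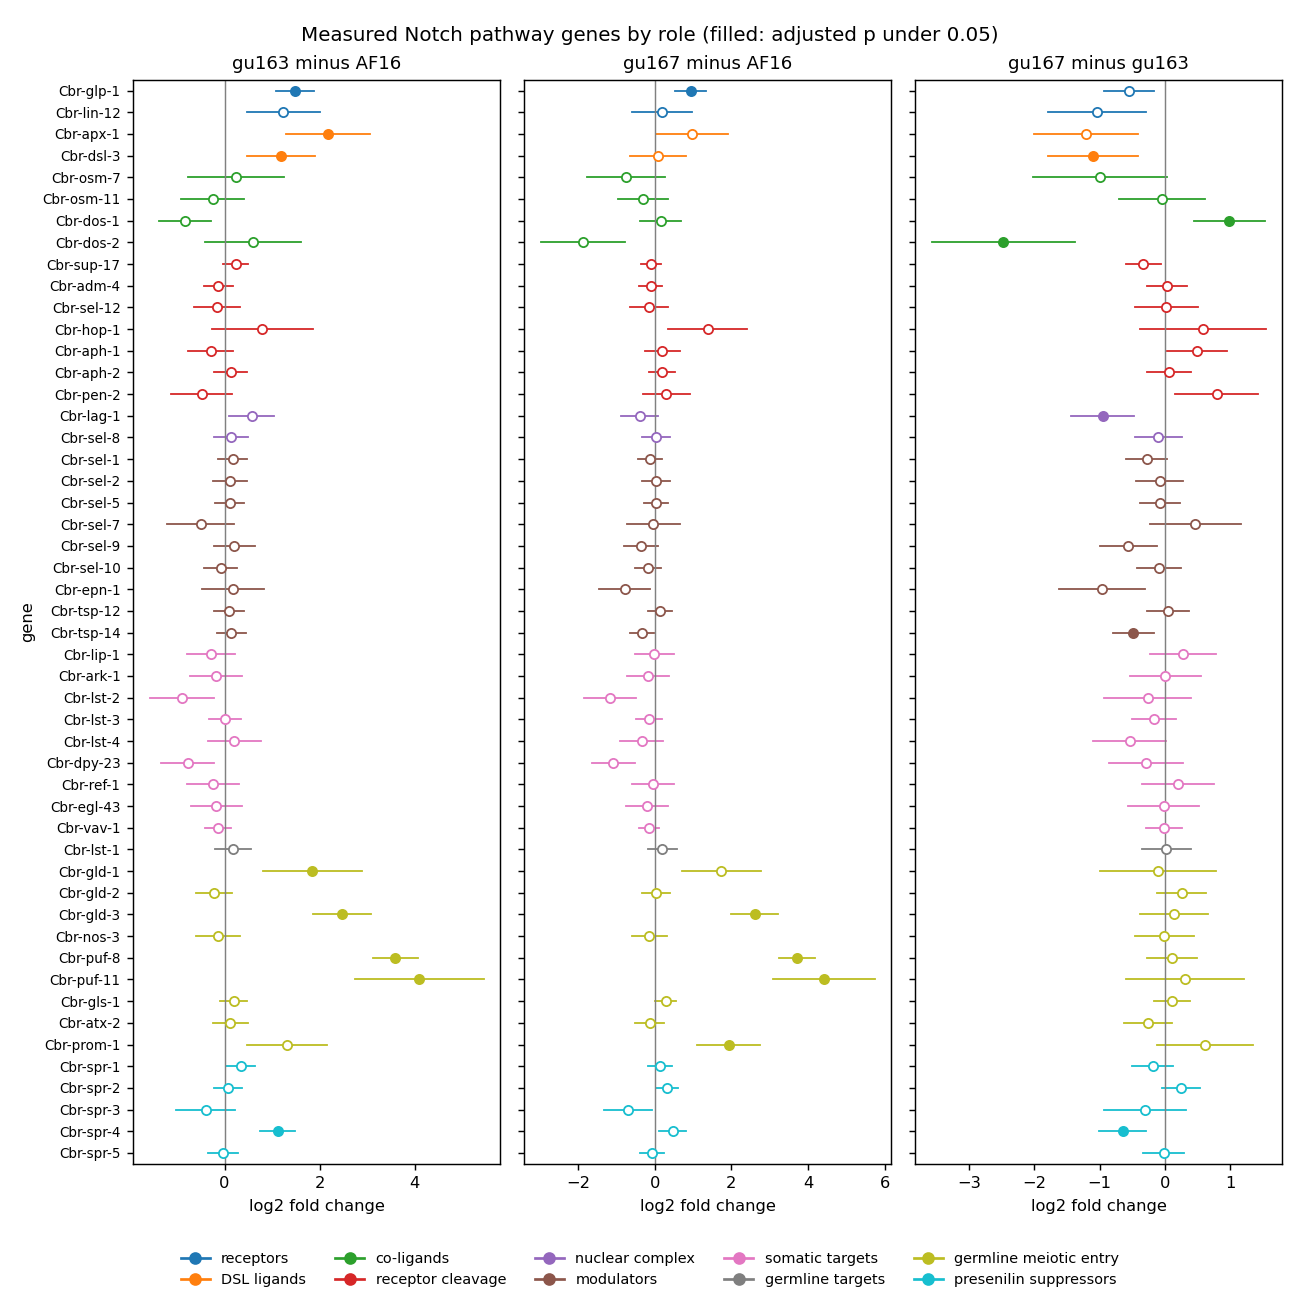
Log2 fold change (horizontal axis) with its 95% interval for the 50 tested genes of the list (vertical axis, coloured by role), in gu163 minus AF16, gu167 minus AF16 and gu167 minus gu163, each panel with its own scale. Filled points are called at an adjusted p under 0.05 and open points are not. Most roles lie around 0, and the largest differences from AF16 in either mutant are in the genes of germline meiotic entry.

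Among the co-ligand genes, DOS-motif proteins that act beside the DSL ligands in C. elegans, Cbr-dos-2 was measured at 2.504, 4.72 and 1.41 CPM in gu167, against 24.0, 12.01 and 13.7 CPM in gu163. The strains did not overlap, and gu167 was lower than gu163 (log2 fold change -2.47 ± 0.49, edgeR adjusted p = 0.0115), also in 6 of 6 fits without a library of either strain. AF16 lay at 17.1, 5.995 and 9.44 CPM, above gu167 without overlap, and that difference passed by DESeq2 (adjusted p = 0.00558) and not by edgeR (0.0986). Cbr-dos-1 was higher in gu167, at 24.2, 33.2 and 43.7 CPM, against 16.5, 15.1 and 19.5 CPM in gu163 (log2 fold change 0.98 ± 0.25, edgeR adjusted p = 0.0269). Of the 6 fits without a library of either strain, the Cbr-dos-1 call held only without gu167 replicate 1, and it also missed with AF16 replicate 3 and gu167 replicate 3 both left out (0.0556). Cbr-dos-1 lay at 26.9, 38.9 and 24.7 CPM in AF16, which gu167 overlapped and gu163 lay below without overlap. The gu163 difference from AF16 (-0.83 ± 0.25, edgeR adjusted p = 0.0653) passed by DESeq2 (0.024), with no filter (0.0412), and without AF16 replicate 3 (0.0485), gu167 replicate 1 (0.0459) or both replicates 3 (0.0322).

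Cbr-lag-1, the gene of the DNA-binding partner of the cleaved receptor, was measured at 13.9, 13.6 and 12.2 CPM in gu167, against 27.9, 21.9 and 27.4 CPM in gu163. Every gu167 library was below every gu163 library (log2 fold change -0.95 ± 0.22, edgeR adjusted p = 0.0186). AF16 lay at 14.7, 13.8 and 23.5 CPM, replicate 3 being the high one, and neither mutant was called against it (edgeR adjusted p = 0.137 for gu163 and 0.422 for gu167). Without AF16 replicate 3, gu163 was called higher than AF16 for Cbr-lag-1 (log2 fold change 0.86, adjusted p = 0.0119), as it was with gu167 replicate 3 also left out (0.0168). The Cbr-lag-1 call between the mutants was lost without gu163 replicate 1 (0.0633), gu163 replicate 3 (0.0645), gu167 replicate 2 (0.0638) or gu167 replicate 3 (0.072). Cbr-tsp-14, a tetraspanin gene of the modulators, was also called lower in gu167 than in gu163 (-0.48 ± 0.14, edgeR adjusted p = 0.0466), and of the fits without a library of either strain that call held only without gu163 replicate 2, and it missed with both replicates 3 left out (0.059).

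Of the 7 genes of receptor cleavage, edgeR called 0 in any of the 3 comparisons. Over all genes tested it called 6.36% higher and 2.94% lower in gu163 against AF16, and 1.97% and 0.128% in gu167 against AF16. Between the mutants it called 5.13% higher and 8.33% lower in gu167, so 0 of 7 does not set this role apart. At an unadjusted p under 0.05 the counts were 0 in gu163 against AF16, 1 in gu167 against AF16 and 3 in gu167 against gu163. No share of all genes was computed at that threshold. The only DESeq2 call was Cbr-sup-17, lower in gu167 than in gu163. The presenilin gene Cbr-hop-1 was measured at 1.43, 2.98 and 2.34 CPM in gu163, 1.42, 4.35 and 4.52 CPM in gu167, and 1.21, 1.56 and 1.13 CPM in AF16. The Cbr-hop-1 levels in each mutant overlapped AF16 (log2 fold change 0.80 ± 0.48 for gu163, with edgeR adjusted p = 0.343, and 1.38 ± 0.46 for gu167, with 0.192, or 0.0497 without gu167 replicate 1). In C. elegans, spr-4 was found as a suppressor of the presenilin mutant sel-12, and its loss raises hop-1 there. The other presenilin gene, Cbr-sel-12, had a log2 fold change of -0.17 ± 0.22 in gu163 and -0.14 ± 0.22 in gu167 against AF16. Cbr-spr-4 itself was called higher in gu163 than in AF16 (1.12 ± 0.16, edgeR adjusted p = 0.00232) and lower in gu167 than in gu163 (-0.65 ± 0.16, 0.0264). Of the 6 fits without a library of either strain, the second Cbr-spr-4 call held only without gu163 replicate 2, and it missed with both replicates 3 left out (0.0508).

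Among genes known in C. elegans as transcriptional targets of Notch signalling, edgeR with all 9 libraries called 0 of the 9 somatic targets tested in any comparison (2 lower in each mutant against AF16 and 0 between the mutants at an unadjusted p under 0.05). Over all genes tested, edgeR called 2.94% lower in gu163 and 0.128% lower in gu167 than in AF16, and 6.36% and 1.97% higher. Between the mutants it called 8.33% lower and 5.13% higher in gu167, so 0 of 9 does not set these targets apart. With DESeq2, Cbr-dpy-23 and Cbr-lst-2 were called lower in gu167 than in AF16 (adjusted p = 0.00796 and 0.0146), among 225 of 12507 genes called lower. Without AF16 replicate 2, edgeR called Cbr-dpy-23 lower in gu163 (0.00961) and gu167 (0.00585) than in AF16, and Cbr-lst-2 likewise (0.0106 and 0.00803). Cbr-dpy-23 in gu167 also passed with no filter (0.0319). The germline target Cbr-lst-1 was measured at 11.6, 12.01 and 11.7 CPM in gu163, 13.4, 11.5 and 10.9 CPM in gu167, and 9.97, 9.38 and 11.8 CPM in AF16. The strains overlapped, with a log2 fold change of 0.18 ± 0.17 in gu163 (interval -0.20 to 0.56, edgeR adjusted p = 0.575) and 0.20 ± 0.17 in gu167 (interval -0.18 to 0.58, 0.581). No symbol matched the other germline targets on the list, sygl-1, fbf-1 and fbf-2.

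Among 9 genes that act downstream of or beside GLP-1 in the choice between mitosis and meiosis, 4 were called higher in each mutant than in AF16 and 0 lower, where 6.36% of all genes tested were called higher in gu163 and 1.97% in gu167. Cbr-puf-8, a PUF family RNA-binding protein gene, was measured at 19.8, 21.8 and 20.9 CPM in gu163, 23.9, 19.5 and 24.2 CPM in gu167, and 2.02, 1.30 and 1.89 CPM in AF16. Each mutant lay far above AF16 (log2 fold change 3.59 ± 0.21 and edgeR adjusted p = 9.32e-06 in gu163, 3.70 ± 0.21 and 1.66e-05 in gu167). Cbr-gld-3, a KH domain protein that partners the poly(A) polymerase GLD-2, rose by 2.47 ± 0.27 in gu163 (0.000484) and by 2.61 ± 0.27 in gu167 (0.000535). Cbr-puf-11, another PUF gene, had 4, 0 and 1 counts in AF16 and rose by 4.09 ± 0.61 in gu163 (0.00271) and by 4.40 ± 0.60 in gu167 (0.00299). These Cbr-puf-8, Cbr-gld-3 and Cbr-puf-11 calls held in each fit without a library of the strains compared. The size for Cbr-puf-11 depended on the AF16 libraries: it was 5.62 in gu163 and 5.93 in gu167 without AF16 replicate 1, and 3.44 and 3.73 without AF16 replicate 2.

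With edgeR the fourth gene differed between the mutants' lists. DESeq2 called the same 5 genes higher in both mutants, Cbr-gld-1 and Cbr-prom-1 among them. Over all 12507 genes it called 1023 higher in gu163 and 411 in gu167. By limma-voom, 3 were called higher in gu163, without these 2 genes, and 4 in gu167, with Cbr-prom-1. Over all genes limma-voom called 756 and 227 higher. Cbr-gld-1, whose C. elegans counterpart encodes a translational repressor that promotes entry into meiosis, was called in gu163 (log2 fold change 1.85 ± 0.47, edgeR adjusted p = 0.0349), and that call was lost without AF16 replicate 2 (0.11), AF16 replicate 3 (0.061), gu163 replicate 1 (0.0837), gu163 replicate 2 (0.119) or gu167 replicate 1 (0.0508). In gu167 Cbr-gld-1 had 1.74 ± 0.47 (0.107). Cbr-prom-1, an F-box gene, was called in gu167 (1.93 ± 0.37, 0.0237), where of the fits without a library of either strain the call held only without AF16 replicate 2, and had 1.32 ± 0.38 in gu163 (0.0598, or 0.035 without AF16 replicate 2). Neither gene was called between the mutants (edgeR adjusted p = 0.899 for Cbr-gld-1 and 0.262 for Cbr-prom-1). In that comparison edgeR called 0 of the 9, with 0 at an unadjusted p under 0.05 and 0 by DESeq2. Of all genes tested, edgeR called 5.13% higher and 8.33% lower there. Cbr-gld-2, Cbr-nos-3, Cbr-gls-1 and Cbr-atx-2 were called in no comparison.

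**Figure D3:**
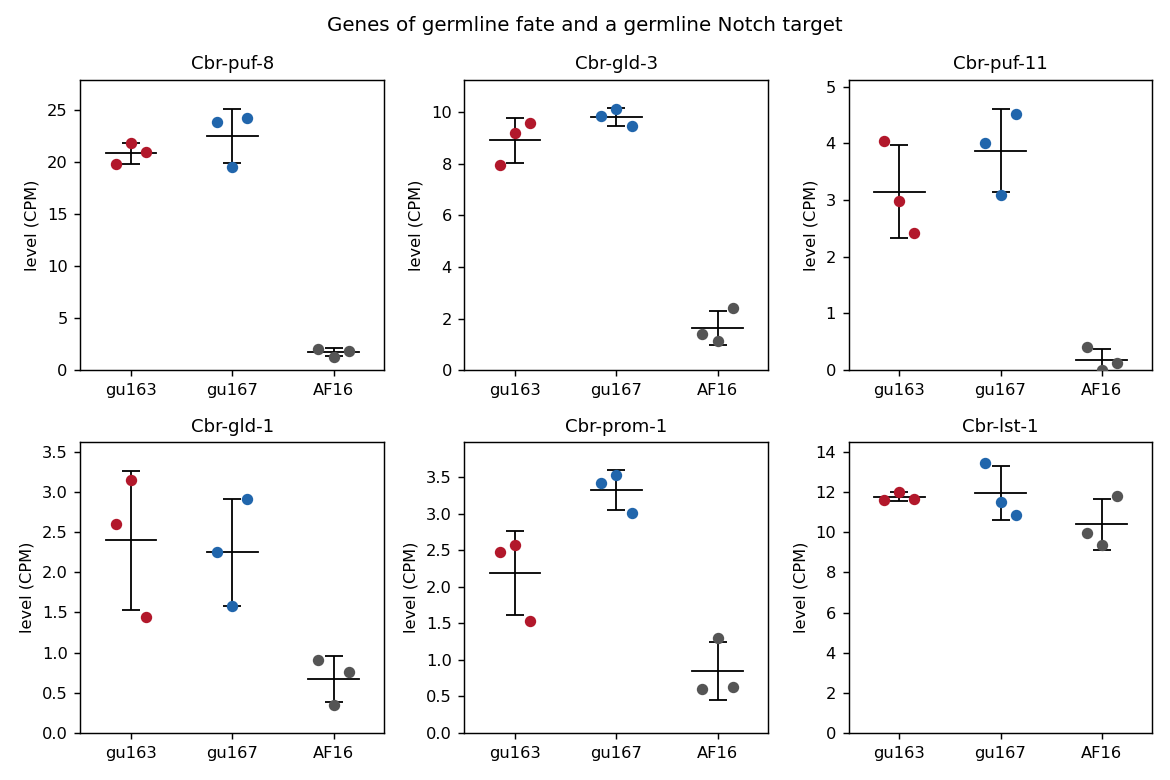
Level in CPM (vertical axes, starting at 0, a separate scale for each gene) of Cbr-puf-8, Cbr-gld-3, Cbr-puf-11, Cbr-gld-1, Cbr-prom-1 and the germline Notch target Cbr-lst-1 in gu163, gu167 and AF16. Points are libraries, and bars are the mean and SD of 3 libraries. The first 5 genes lie above AF16 in every mutant library, while Cbr-lst-1 overlaps between the strains.

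Summed levels of germline and gamete transcripts were also higher in the mutants, with P granule genes in gu167 overlapping AF16. The summed level of 4 P granule genes, markers of germ cells, was 58.7, 45.6 and 46.0 CPM in gu163, 46.7, 35.9 and 32.6 CPM in gu167, and 34.4, 23.4 and 26.2 CPM in AF16. Of these genes, Cbr-glh-4 lay above AF16 in both mutants without overlap, and Cbr-deps-1 overlapped AF16 in both. Cbr-pgl-1 and Cbr-glh-1 lay above AF16 in gu163 and overlapped it in gu167. The sum of 5 meiotic chromosome genes was 26.7 to 32.8 CPM in gu163, 40.2 to 48.1 CPM in gu167 and 4.87 to 8.87 CPM in AF16, where Cbr-syp-1 and Cbr-rec-8 were at 0 in replicate 3. The sum of 5 oocyte genes was 48.9 to 54.7 CPM in gu163, 36.6 to 46.6 CPM in gu167 and 5.04 to 7.45 CPM in AF16. Cbr-rme-2 alone gave 33.7 to 37.6 CPM of the oocyte sum in gu163, 18.4 to 23.9 CPM in gu167 and 1.26 to 2.92 CPM in AF16, while Cbr-egg-1 overlapped between the strains. The sum of 4 sperm genes was 24.2 to 86.1 CPM in gu163, 10.6 to 13.9 CPM in gu167 and 2.26 to 3.12 CPM in AF16, with Cbr-spe-41 at 0 in AF16 replicate 3 and Cbr-fer-1 at 0 in AF16 replicate 1. The sperm genes differed in pattern: Cbr-spe-27 gave 73.8, 28.7 and 9.59 CPM of the sum in gu163 and lay at 0.693 to 1.17 CPM in gu167 and 1.01 to 1.39 CPM in AF16, while Cbr-fer-1 was at 2.83 to 4.22 CPM in gu167 and 0.391 to 0.967 CPM in gu163. Their part in the differences of Cbr-glp-1, Cbr-apx-1 and Cbr-dsl-3 was not tested, and in whole-animal RNA fewer cells of a type and less RNA per cell cannot be told apart.

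Per 100 CPM of the P granule sum, Cbr-glp-1 stood at 43.02, 39.3 and 45.0 CPM in gu163, 28.6, 43.7 and 44.4 CPM in gu167, and 20.8, 34.6 and 28.4 CPM in AF16. On that scale gu167 overlapped both other strains, and gu163 lay above AF16, in the contrast that chose the gene. Cbr-apx-1 stood at 5.10, 7.82 and 5.95 in gu163, 1.97, 2.98 and 6.48 in gu167, and 1.47, 3.35 and 2.89 in AF16. Cbr-dsl-3 stood at 7.10, 8.0 and 9.28 in gu163, 2.33, 6.84 and 6.17 in gu167, and 4.99, 8.18 and 6.25 in AF16, so that gu163 overlapped AF16. With other germline lists as the unit, a choice made after seeing the data, the order was different. Per 100 CPM of the meiotic chromosome sum, Cbr-glp-1 stood at 94.6, 54.6 and 66.4 in gu163, 33.3, 32.8 and 30.1 in gu167, and 80.7, 166 and 148 in AF16, so that gu163 overlapped AF16 and gu167 lay below both. Per 100 CPM of the oocyte sum, Cbr-glp-1 stood at 36.6 to 46.2 in gu163 and 31.0 to 42.9 in gu167, both below the 95.9 to 160 of AF16. Cbr-dsl-3 in both mutants lay below AF16 per unit of either sum, and Cbr-apx-1 in gu163 overlapped AF16 per unit of either.

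**Figure D4:**
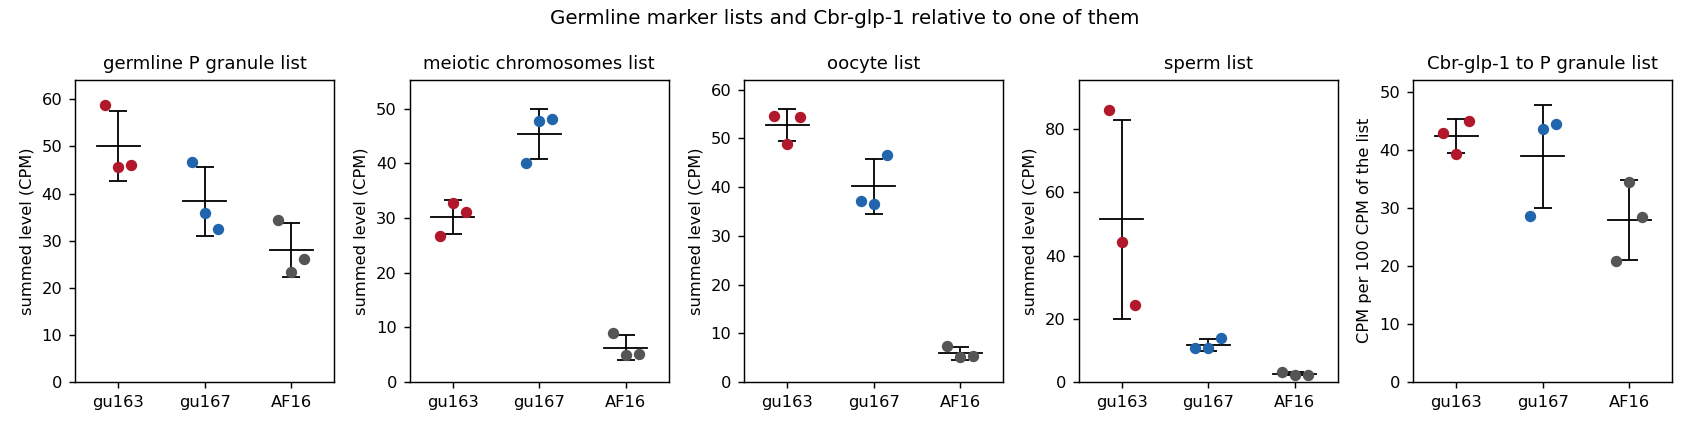
Summed level in CPM (vertical axes, starting at 0, a separate scale for each panel) of the germline P granule, meiotic chromosome, oocyte and sperm marker lists, and, in the last panel, the level of Cbr-glp-1 per 100 CPM of the P granule list, in gu163, gu167 and AF16. Points are libraries, and bars are the mean and SD of 3 libraries. The meiotic, oocyte and sperm sums lie above AF16 in every mutant library, while Cbr-glp-1 per P granule sum overlaps between gu167 and AF16.

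The somatic lists are given as the same sums. The sum of 6 vulval precursor genes was 26.1 to 33.8 CPM in gu163, 23.8 to 24.4 CPM in gu167 and 28.2 to 32.6 CPM in AF16, so gu163 overlapped AF16 and gu167 lay below it. Of these genes, Cbr-vab-23 (10.5 to 14.2 CPM in gu167, 14.7 to 17.5 CPM in AF16) and Cbr-lin-31 lay below AF16 in gu167. Cbr-lin-39, Cbr-cog-1, Cbr-lin-11 and Cbr-egl-17 in gu167 overlapped AF16. The sum of 4 somatic gonad genes was 351 to 393 CPM in gu163, 272 to 353 CPM in gu167 and 337 to 564 CPM in AF16, the highest in AF16 replicate 3, and Cbr-ceh-22 of that list was at 0 in gu163 replicate 2 and AF16 replicate 2. Nearly all of that sum came from Cbr-tra-1 and Cbr-gon-1, with Cbr-lim-7 at 2.67 to 5.73 CPM, so it says little on the other genes of the list. The sum of 3 hypodermis genes was 1021 to 2620 CPM in gu163, 249 to 480 CPM in gu167 and 812 to 1208 CPM in AF16, so gu167 lay below both other strains. Against AF16 this held for Cbr-rol-6, while Cbr-dpy-7 and Cbr-lin-26 in gu167 overlapped AF16. The sum of 3 pharynx genes was 41.8 to 56.4 CPM in gu163, 25.4 to 30.6 CPM in gu167 and 16.9 to 40.8 CPM in AF16, so gu163 lay just above AF16 and above gu167. Cbr-myo-2 gave 34.5, 23.3 and 35.3 CPM of that sum in gu163. Cbr-pha-4 in gu163 overlapped AF16, and Cbr-tnt-4 in gu163 overlapped gu167. The body muscle, intestine and neuron sums in gu163 and gu167 overlapped AF16. The part of the somatic lists in the members' differences was not tested.

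No annotated gene overlaps Cbr-glp-1, Cbr-apx-1 or Cbr-dsl-3 in the CB4 reference annotation. Of their flanking genes, CBG06810 beside Cbr-glp-1 had a log2 difference of -0.65 ± 0.17 in gu163 against AF16 (edgeR adjusted p = 0.039, not refitted without single libraries). Cbr-ina-1 on the other side of Cbr-glp-1 (-0.11 ± 0.18) and Cbr-nhr-122 beside Cbr-dsl-3 (-0.04 ± 0.34) were not called. The 2 neighbours of Cbr-apx-1, CBG21820 and a tRNA gene, had 0 counts in the 9 libraries.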

How the data were processed

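The deposited values were whole-number read counts for each gene and library, which the authors had not normalized, and 9 of 9 single-library columns equalled those of the series table. Per the submitters' processing notes, Trim Galore, FastQC, STAR and DESeq were used, without versions. No label or header names the counter, its strand setting, the genome build or the annotation, so reads of a gene and an antisense transcript cannot be told apart. RNA was depleted of ribosomal RNA, per the labels' protocols.

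The test was edgeR 4.0.16 (R 4.3.3), using TMM, filterByExpr at a minimum count of 10 and robust quasi-likelihood F tests, with all 9 libraries and 3 strains in 1 fit. Benjamini-Hochberg adjustment ran over 12507 genes, and adjusted p under 0.05 was called. SEs came from the F statistic. Steps were tested on simulated data. Symbols were matched by locus tag to RefSeq genes of assembly CB4 (22727 of 22922 rows matched, 195 not), used for names and neighbours only. Patterns were compared on log2 CPM with a prior count of 2, among tested genes with a symbol and a mean of at least 1 CPM.

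Named were the 3 members, all measured receptors and DSL ligands, the presenilin and strain genes, up to 5 called genes of each other role and the 3 genes most alike each member. Flanking genes, the 4 uncalled meiotic entry genes, the genes called only under an alternative and the single genes of the marker lists were named after their values were seen. Members and lists were chosen with earlier results of these data known. Alternatives were DESeq2 1.42.0, limma-voom (limma 3.58.1), RLE and upper-quartile scaling, other filters, an adjusted p under 0.0005, only the 2 strains compared, a replicate block and libraries left out.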

Additional observations from a re-analysis of the deposited data

How the results depend on the processing

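In gu163 against AF16, the counts of called genes were 1163 over all genes and 5 in the pathway list. They were 85 and 2 at an adjusted p under 0.0005, all genes were 759 with only the 2 strains, and the list had 8 by DESeq2. Leaving out libraries gave 654 to 1108 (lowest without gu163 replicate 3 and 772 without gu163 replicate 2) and 4 to 7. This contrast chose the members, so whether they passed in it is a description only. At an adjusted p under 0.0005 the Cbr-glp-1 and Cbr-apx-1 differences (1.49 and 2.17) missed. That of Cbr-dsl-3 (1.19) missed too, and it missed by limma-voom (1.16), without a filter (1.18), with the replicate block (1.19), with AF16 replicate 3 and gu167 replicate 3 both left out (1.15), and in 8 of 9 fits without a library (1.14 to 1.26 over the 9).

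In gu167 against AF16, the counts were 262 and 4. They were 636 and 8 by DESeq2 and 42 and 1 at 0.0005, while all genes were 169 with only the 2 strains and 173 with the block. Leaving out libraries gave 152 to 367 (lowest without gu167 replicate 2 and 159 without gu167 replicate 3) and 3 to 7. Cbr-glp-1 missed at 0.0005 (0.94), with only the 2 strains (0.94), with the block (0.94), with both replicates 3 out (0.93) and in 5 of 9 fits without a library (0.88 to 0.99 over the 9). Cbr-dsl-3 turned to -0.0057 with both replicates 3 out and ranged from -0.20 to 0.34 without a library.

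In gu167 against gu163, the counts were 1683 and 5. They were 25 and 0 at 0.0005, and the list had 8 by DESeq2, 3 with the block and 2 with both replicates 3 out. Leaving out libraries gave 710 to 2488 (710 and 883 without gu163 replicates 1 and 3, and 1082, 758 and 757 without gu167 replicates 1, 2 and 3) and 1 to 7. Cbr-glp-1 passed by DESeq2 (-0.55), with only the 2 strains (-0.55) and without AF16 replicate 3 (range without a library -0.66 to -0.43). Cbr-apx-1 passed by DESeq2 (-1.22), limma-voom (-1.29), RLE (-1.22), with only the 2 strains (-1.22), with both replicates 3 out (-1.63) and in 2 of 9 fits without a library (-1.62 to -1.01). Cbr-dsl-3 missed with upper-quartile scaling (-1.06), without a filter (-1.11), at 0.0005 (-1.10), with the block (-1.14), with both replicates 3 out (-1.16) and in 8 of 9 fits without a library (-1.39 to -0.85).

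Replicate numbers did not pair the libraries across all 3 strains: correlations of same-numbered deviations ran from -0.29 to 0.249, with 3 of 9 pairs over 0.1. For 0 of 9 libraries was the best match in both other strains the library of its own number. Between the mutants alone, replicate 3 of gu163 and replicate 3 of gu167 did correlate best with each other (0.249). The same held for replicate 1 of each (0.234) and not for replicate 2 (-0.0753). Cbr-apx-1 was not tested at a minimum count of 30. Where an alternative changed a call, the cause was not tested, beyond fewer libraries or a stricter threshold. Depth limits Cbr-apx-1, with 5 to 9 counts per AF16 library, and 3 further DSL ligand genes were below the filter on low counts.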
